A study of Mus musculus with 3 samples.

Results

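The genes described here encode parts of the machinery that carries cargo, mitochondria among it, along microtubules: 5 kinesin heavy chain genes (Kif1a, Kif1b, Kif5a, Kif5b, Kif5c), the motor adaptors Trak1 and Trak2, the mitochondrial GTPases Rhot1 and Rhot2, and the dynein light chain Dynll1. They were chosen by name as 10 of the 32285 genes in the deposited count tables, and all 10 were found. The study used 3 single-nucleus libraries from frozen mouse hippocampus: control (no treatment), doxorubicin (an anthracycline given against tumours), and doxorubicin with ACY-1083, an inhibitor of the tubulin deacetylase HDAC6. Each library pooled both hippocampi of 4 mice, and the labels give no dose, duration, strain, sex or age. With 1 library per group there was no replicate, no test between groups was made, and every interval below is a 95% interval for counting error only.

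Kinesins walk toward the plus end of microtubules, which points to the axon tip, and cytoplasmic dynein walks back toward the cell body. Kif1a and Kif1b are kinesin-3 motors: KIF1A carries synaptic vesicle precursors and dense core vesicles, and KIF1B has one isoform for mitochondria and another for synaptic vesicle precursors. Kif5a, Kif5b and Kif5c encode the heavy chains of conventional kinesin, which carries mitochondria among many other cargoes. TRAK1 and TRAK2 couple conventional kinesin, and also dynein, to the Miro proteins that Rhot1 and Rhot2 encode in the outer mitochondrial membrane, where Miro releases the motor when calcium rises. DYNLL1 is a small hub protein that is part of dynein and also of many other complexes. Acetylated tubulin, the substrate that HDAC6 deacetylates, is known to favour binding of conventional kinesin to microtubules.

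RefSeq promoters (250 bases before to 50 after the start, GRCm38.p6) were read for 8 of the 10 genes, 13 promoters in all. None was read for Kif5a or Kif5b, so the motif counts below do not cover these genes, and whether RefSeq lists promoters for them is left open. The windows shown are from Kif5c and Trak1, whose levels spread most between cell classes of the third library. The single Kif5c window holds a full cAMP response element, TGACGTCA (the same on both strands). Of the 4 listed Trak1 starts only number 4, the window shown, holds it. The motif stood in 2 of these 13 promoters and in 588 of 32851 listed promoters (1.79%), and the palindromic NRF1 motif, linked to genes of mitochondria, stood in 0 of the 13 against 319 of all (0.971%). Both windows are printed 5′ to 3′ on the plus strand with the motif in capitals; a match of letters is a description and not a binding site. UMIs were counted per gene, so which of the 4 listed Trak1 starts was in use cannot be seen.
Kif5c, chr2:49619036-49619335: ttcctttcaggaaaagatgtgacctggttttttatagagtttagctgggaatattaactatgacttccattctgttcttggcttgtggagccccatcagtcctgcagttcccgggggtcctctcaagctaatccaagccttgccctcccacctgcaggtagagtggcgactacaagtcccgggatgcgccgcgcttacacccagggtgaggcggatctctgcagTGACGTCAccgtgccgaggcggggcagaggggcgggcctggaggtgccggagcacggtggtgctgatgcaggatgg
Trak1, start number 4, chr9:121403196-121403495: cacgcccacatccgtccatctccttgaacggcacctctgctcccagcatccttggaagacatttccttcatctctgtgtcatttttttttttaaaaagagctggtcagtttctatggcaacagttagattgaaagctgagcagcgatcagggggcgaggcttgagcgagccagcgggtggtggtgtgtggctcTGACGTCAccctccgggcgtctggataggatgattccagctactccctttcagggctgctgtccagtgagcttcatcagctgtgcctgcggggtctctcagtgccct
In Kif5c the motif begins 26 bases before the listed start, and in Trak1 57 bases before it.

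The matrices hold 10909, 12221 and 12192 barcodes (control, doxorubicin, doxorubicin plus ACY-1083) with 19175447, 21458785 and 62151258 UMIs, and 29 to 46 barcodes are shared by any pair of libraries. The third library stands apart from the others. It has a median of 3912.5 UMIs per barcode against 1487 and 1485, Malat1 makes up 7.69% of its UMIs against 21.7% and 23.3%, and its header names another Cell Ranger version. After filtering, 10455, 11647 and 11846 nuclei were kept. The third library supplied 90% or more of the nuclei in 13 of the 30 clusters and 10% or less in 12. Clusters were therefore named one by one from marker genes, and each name below stands for likeness to those markers. Classes with at least 100 nuclei in every library were compared, which left 6 neuron classes (dentate gyrus granule, CA1, CA2/CA3, subicular or cortical excitatory, thalamic or habenular, GABAergic), 4 glial classes (oligodendrocytes, their precursors, astrocytes, microglia), fibroblast-like cells and choroid plexus epithelium. All markers of 11 classes had UMIs in each library, and of the 8 thalamic or habenular markers 6, 6 and 7 did. Not all markers were above the mean of the other classes. Those that were numbered 5, 5 and 6 of 8 for CA2/CA3 and 5, 5 and 7 of 8 for thalamic or habenular neurons. For subicular or cortical cells they numbered 8 of 10 in each library, and for CA1 6, 5 and 6 of 6. In the remaining classes all were. Unnamed clusters held 773, 1212 and 386 nuclei. From the oligodendrocyte class, 131 nuclei of the third library with high UMI counts were set apart and are not in its values.

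The genes differ widely in intron length (GRCm38, GENCODE vM21), which bears on the third library below. Dynll1 (chromosome 5, 115297110 to 115300999) has 1.86 kb of introns and Rhot2 (chromosome 17, 25838457 to 25844851) has 3.21 kb. Kif5a (chromosome 10, 127225696 to 127263348) has 31.4 kb, Kif5b (chromosome 18, 6201002 to 6242174) 34.5 kb, Rhot1 (chromosome 11, 80209019 to 80267907) 54.7 kb, and Trak2 (chromosome 1, 58900449 to 58973430) 66.8 kb. Kif1a (chromosome 1, 93015464 to 93101951) has 78.2 kb, Kif1b (chromosome 4, 149176319 to 149307693) 121 kb, Kif5c (chromosome 2, 49619298 to 49774778) 149 kb, and Trak1 (chromosome 9, 121297502 to 121474918) 172 kb. Kif5b overlaps antisense genes, which lie on the opposite strand. Rhot2 overlaps Wdr90 on the same strand, so UMIs of that pair may not be told apart.

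Levels are counts per 1e6 UMIs of the class total (CPM). UMIs of neuron genes were found in every class. Free RNA itself was not measured, and it cannot be told apart here from remaining doublets or mixed nuclei. As a reference, 8 neuron genes were summarized (Rbfox3, Snap25, Syt1, Syn1, Stmn2, Camk2b, Nrgn and Grin1), called pan-neuron genes below. Their median ratio of neuron to glial mean CPM was only 1.5 in control, 1.44 in doxorubicin and 2.08 in doxorubicin plus ACY-1083. Nrgn, a gene of excitatory neurons, had the lowest ratio of them in each library. In oligodendrocytes the median of these neuron genes stood at 68.2%, 73.1% and 40.0% of their neuron mean. A level in a glial class that is not above the neuron level can thus not be read as expression there. A level above it is not enough either. The highest of these neuron genes reached 142%, 174% and 243% of its neuron mean in oligodendrocytes and 152%, 161% and 165% in astrocytes.

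Kif1a, Kif5a, Kif5c and Trak2 had their highest class among neurons in all 3 libraries, 4 of the 10 genes. The neuron to glia ratio was 1.48, 1.29 and 1.86 for Kif5a and 1.5, 1.32 and 1.92 for Kif5c (in library order control, doxorubicin, doxorubicin plus ACY-1083, kept below). Both sat within the range of the pan-neuron genes, which ran from 0.748 to 2.03 in control. That range reaches below 1, and Kif5b (0.904) and Trak1 (1.01) lay within it in control too. Lying within it thus does not set Kif5a and Kif5c apart. Kif1a, at 1.13, 1.04 and 1.08, and Trak2, at 1.17, 1.24 and 1.28, were nearer to 1. Kif1b, at 0.692, 0.657 and 0.606, stood on the glial side in every library, below every pan-neuron gene. Dynll1, at 0.713, 0.753 and 0.467, and Rhot1, at 0.810, 0.702 and 0.818, were also on that side, but so was the neuron gene Nrgn, at 0.748, 0.685 and 0.610.

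**Figure D1:**
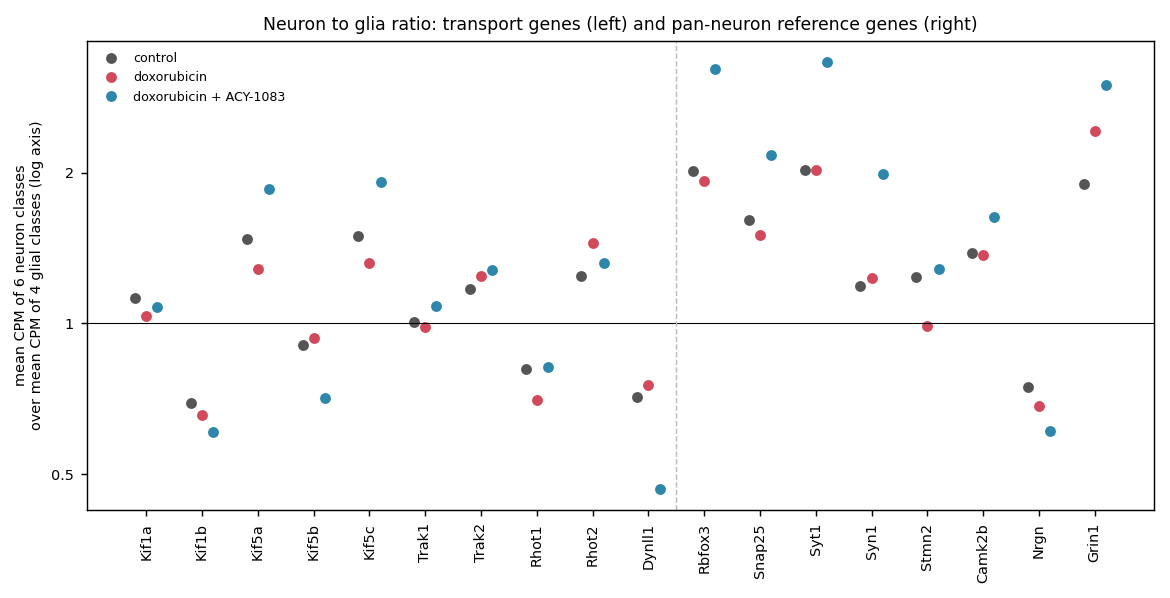
Ratio of the mean CPM of 6 neuron classes to that of 4 glial classes on a log axis, 1 point per library, for the 10 transport genes (left of the dashed line) and 8 pan-neuron reference genes (right). Kif5a and Kif5c lie above 1 in every library, Kif1b and Dynll1 lie below 1, and the reference genes themselves reach only 2.03 in control.

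Kif1a, the synaptic vesicle precursor motor, was highest in GABAergic neurons of every library, at 251 CPM (227 to 277), 259 CPM (235 to 286) and 201 CPM (189 to 213). Granule neurons had 114, 113 and 98.1 CPM, with intervals that do not reach the GABAergic ones. Among neurons, subicular or cortical cells had 195, 181 and 169 CPM. The excitatory cells of the dentate gyrus and the CA fields thus had less Kif1a per UMI than interneurons and the cells outside those fields. Astrocytes were second in control and doxorubicin, at 236 CPM (205 to 270) and 229 CPM (203 to 258), and lower in the order of the third library, at 157 CPM (141 to 174). The order of the 12 classes was alike in control and doxorubicin (Spearman correlation 0.77 over 12 classes, which share each library). Intervals of neighbours in that order overlapped at 11 of 11 steps in control and 10 of 11 in each other library.

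Kif1b, the paralog with a mitochondrial isoform, had a glial pattern. Astrocytes held 667 CPM (614 to 723), 651 CPM (606 to 699) and 679 CPM (646 to 714), and oligodendrocytes 547 CPM (501 to 596), 512 CPM (469 to 557) and 949 CPM (910 to 990). The neuron classes were close to each other, from 282 to 346 CPM in control, from 266 to 306 CPM in doxorubicin and from 307 to 384 CPM in the third library. In each library the lower bounds of astrocytes and oligodendrocytes lie above every neuron class. Microglia had 295, 300 and 346 CPM and precursors 267, 288 and 337 CPM, which is no more than the neurons had. Kif1b's share of the UMIs of the Kif1a and Kif1b pair was 80.2% (76.9 to 83.2) in control oligodendrocytes and 55.6% (52.3 to 58.9) in control GABAergic neurons. The doxorubicin library had 79.3% (76.1 to 82.4) and 54.1% (50.7 to 57.4) in the same classes. Such shares do not rank the genes within a class, since the genes differ in length.

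Kif5a, the conventional kinesin heavy chain found mainly in neurons, varied widely among neuron classes. GABAergic neurons had 195 CPM (174 to 218), 170 CPM (150 to 192) and 146 CPM (136 to 156). Granule neurons had 64.0 CPM (56.1 to 72.7), 68.4 CPM (60.5 to 77.0) and 47.6 CPM (43.9 to 51.6), the lowest of the 6 neuron classes in each library. Between them lay CA1 at 118, 101 and 91.0 CPM, CA2/CA3 at 129, 117 and 103 CPM, and subicular or cortical cells at 168, 138 and 117 CPM. Astrocytes had 72.5, 84.1 and 40.1 CPM, and the choroid plexus class 59.7, 26.9 and 27.2 CPM from 8, 5 and 12 UMIs. Intervals of granule neurons overlapped both of these in each library. The class order was the same in outline in every library, with a Spearman correlation of 0.90 between control and doxorubicin and 0.87 between doxorubicin and the third library, both over 12 classes.

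Kif5b, the broadly expressed heavy chain, was the flattest kinesin, with a highest class 1.65, 1.67 and 2.35 times its lowest. CA2/CA3 neurons were lowest in each library, at 121 CPM (106 to 138), 110 CPM (95.7 to 126) and 83.2 CPM (77.4 to 89.3). The highest class differed by library: oligodendrocytes in control at 200 CPM (172 to 230), choroid plexus epithelium in doxorubicin at 183 CPM (127 to 256), and fibroblast-like cells in the third library at 196 CPM (161 to 236). Neighbouring classes overlapped at all 11 steps of the order in each library.

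Kif5c, the third heavy chain, ran higher in neurons than in glia. Thalamic or habenular neurons had 191 CPM (154 to 234), 193 CPM (164 to 227) and 205 CPM (187 to 225), and GABAergic neurons had 189 CPM (169 to 212), 176 CPM (156 to 198) and 253 CPM (239 to 266). Choroid plexus epithelium was lowest in each library, at 37.3, 48.5 and 40.8 CPM from 5, 9 and 18 UMIs. All 6 neuron classes lay above all 4 glial classes in control and in the third library. In doxorubicin this failed, because oligodendrocytes had 155 CPM (132 to 181), above granule neurons at 141 CPM, CA1 at 129 CPM and CA2/CA3 at 126 CPM.

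The share of each heavy chain in the UMIs of Kif5a, Kif5b and Kif5c together was compared between the classes of a library. In control, Kif5b took 43.2% (40.5 to 45.9) of them in granule neurons, 38.9% (36.2 to 41.8) in CA1, 31.1% (27.8 to 34.6) in CA2/CA3 and 28.9% (25.9 to 32.1) in GABAergic neurons. Kif5a mirrored this, with 17.5% (15.5 to 19.6) in granule neurons, 26.7% (24.2 to 29.3) in CA1, 33.2% (29.8 to 36.7) in CA2/CA3 and 36.1% (32.8 to 39.4) in GABAergic neurons. The doxorubicin library held Kif5a shares of 18.5% (16.6 to 20.6) in granule neurons and 35.2% (31.8 to 38.8) in GABAergic neurons. Granule and GABAergic neurons thus sat at opposite ends of the Kif5a to Kif5b balance in both libraries. Kif5c took a narrower range in control neurons, from 33.2% in subicular or cortical cells to 39.3% in granule neurons. In choroid plexus epithelium Kif5b held 63.9% (46.2 to 79.2), 70.8% (55.9 to 83.0) and 61.0% (49.2 to 72.0).

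**Figure D2:**
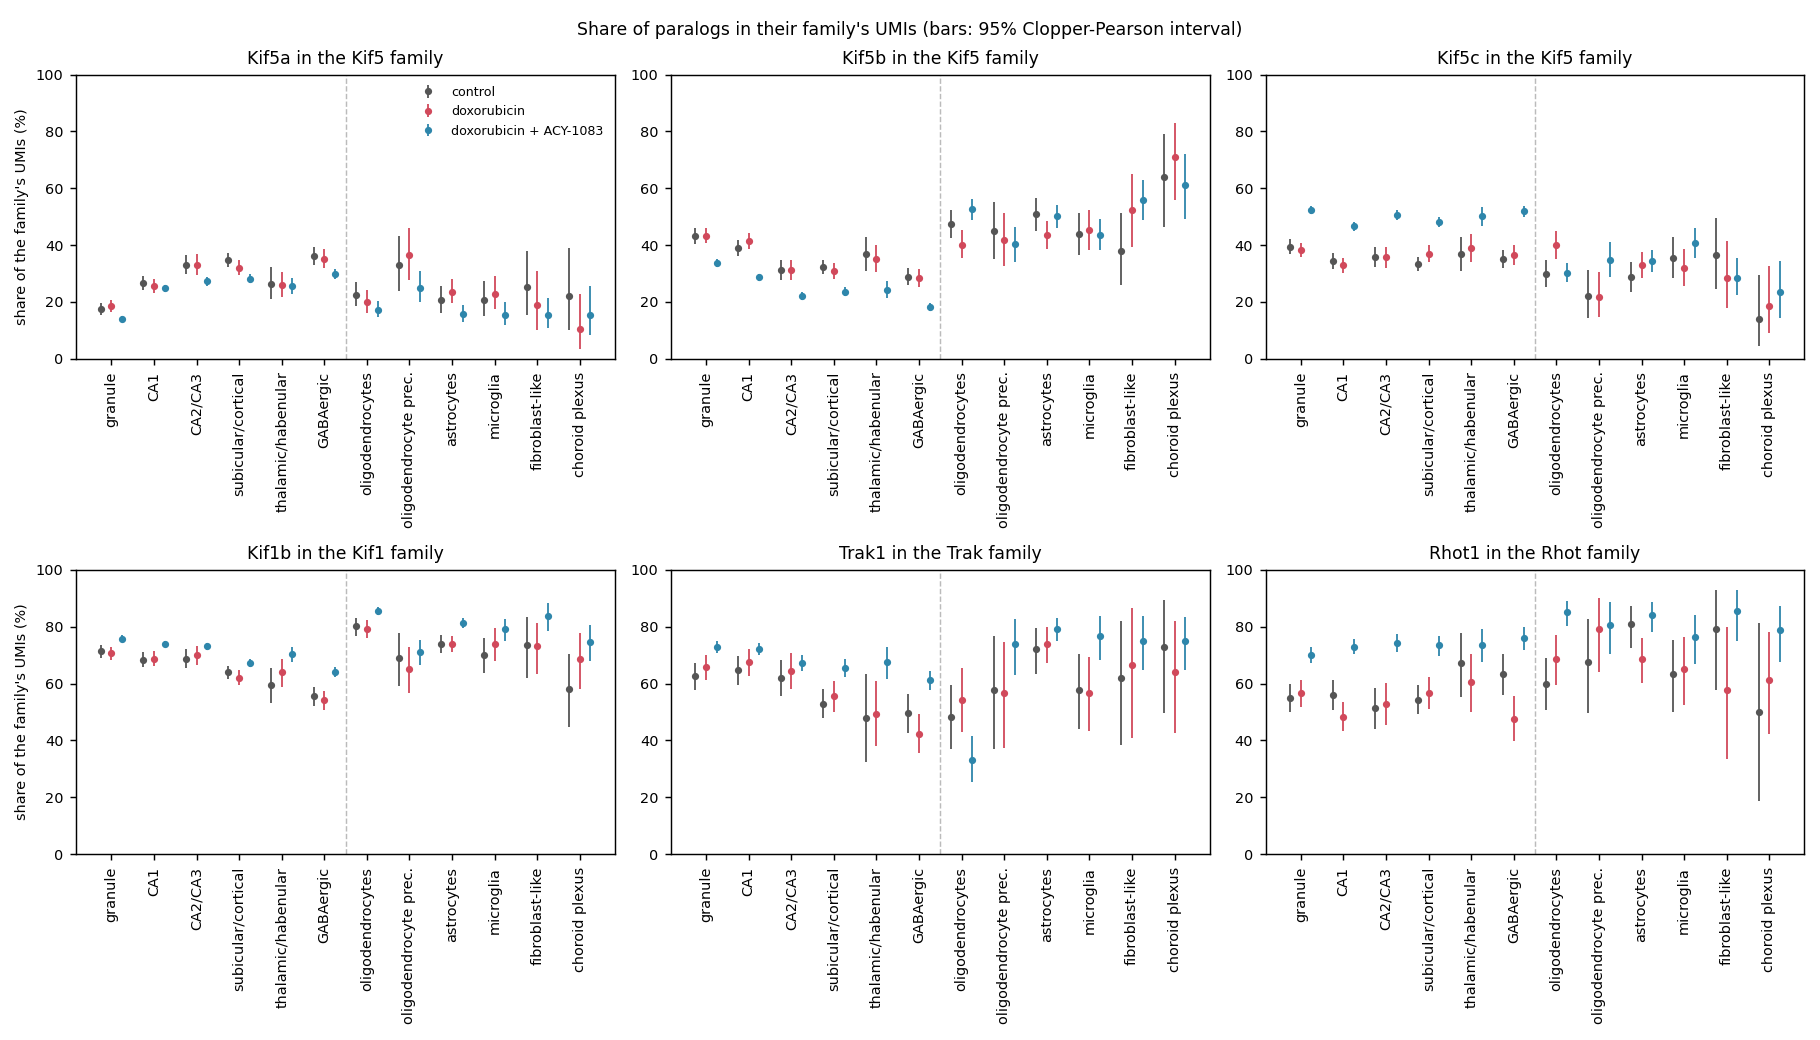
Share in percent of the UMIs of a family (Kif5a, Kif5b and Kif5c; Kif1a and Kif1b; Trak1 and Trak2; Rhot1 and Rhot2) by cell class and library, with exact Clopper-Pearson intervals; the dashed line parts neuron from other classes. Kif5a goes from 17.5% in granule to 36.1% in GABAergic neurons of the control library, and Rhot1 has higher shares in the third library than in the doxorubicin library in all 12 classes.

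Trak1, the adaptor that binds both kinesin and dynein, was low in oligodendrocytes: 42.2 CPM (30.2 to 57.5), 42.5 CPM (30.9 to 57.0) and 20.7 CPM (15.2 to 27.4), the lowest class of each library. Thalamic or habenular neurons came next in control, at 43.1 CPM from 21 UMIs, and in doxorubicin, at 51.2 CPM. Neighbouring classes overlapped at all 11 steps of the order in these libraries. Astrocytes had 105 CPM (85.0 to 129), 123 CPM (104 to 145) and 143 CPM (128 to 160), and the choroid plexus class held 119, 86.2 and 156 CPM from 16, 16 and 69 UMIs. Intervals of astrocytes and oligodendrocytes do not overlap in any library. CA1 neurons had 84.2, 77.6 and 98.5 CPM. Of the UMIs of the Trak pair, Trak1 took 72.1% (63.5 to 79.6), 74.0% (67.2 to 80.0) and 79.1% (74.8 to 82.9) in astrocytes and 49.5% (42.7 to 56.4), 42.4% (35.6 to 49.4) and 61.1% (57.6 to 64.5) in GABAergic neurons.

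Trak2, the paralog linked more to dynein and dendrites, was highest in GABAergic neurons, at 69.7 CPM (57.3 to 84.0), 77.7 CPM (64.5 to 92.9) and 57.8 CPM (51.5 to 64.6). Granule neurons had 43.6, 40.7 and 33.7 CPM, below the GABAergic intervals in each library, and the remaining classes overlapped their neighbours.

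Rhot1 and Rhot2, which encode Miro1 and Miro2, were the least counted members beside the Trak genes, and neither had a class order that repeated between control and doxorubicin (Spearman correlations 0.25 and 0.22 over 12 classes). Rhot1 ran from 54.0 CPM in CA2/CA3 neurons to 110 CPM (89.1 to 134) in astrocytes of control, leaving out choroid plexus epithelium with 5 UMIs. Rhot2 ran from 26.0 CPM (16.5 to 39.1) in astrocytes to 56.4 CPM (48.3 to 65.5) in subicular or cortical cells of control. Rhot1's share of the pair was 80.8% (72.6 to 87.4) in control astrocytes against 54.9% (49.9 to 59.8) in granule neurons. In the doxorubicin library these shares were 68.5% (60.2 to 76.0) and 56.6% (51.7 to 61.4).

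Dynll1, the light chain, was lowest in GABAergic neurons of control and the third library and in CA2/CA3 neurons of doxorubicin. In every library oligodendrocytes, their precursors, astrocytes, fibroblast-like cells and choroid plexus epithelium ranked above every neuron class, and microglia did so in the third library alone. Astrocytes had 259 CPM (227 to 295), 287 CPM (257 to 320) and 151 CPM (136 to 168), and GABAergic neurons had 124 CPM (107 to 143), 151 CPM (132 to 172) and 51.8 CPM (45.9 to 58.3). Its level moved with those of short, abundant transcripts over the classes, and Nrgn, a gene of excitatory neurons, also had a ratio of neurons to glia below 1. What part RNA from other cells has in that pattern was not tested.

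**Figure D3:**
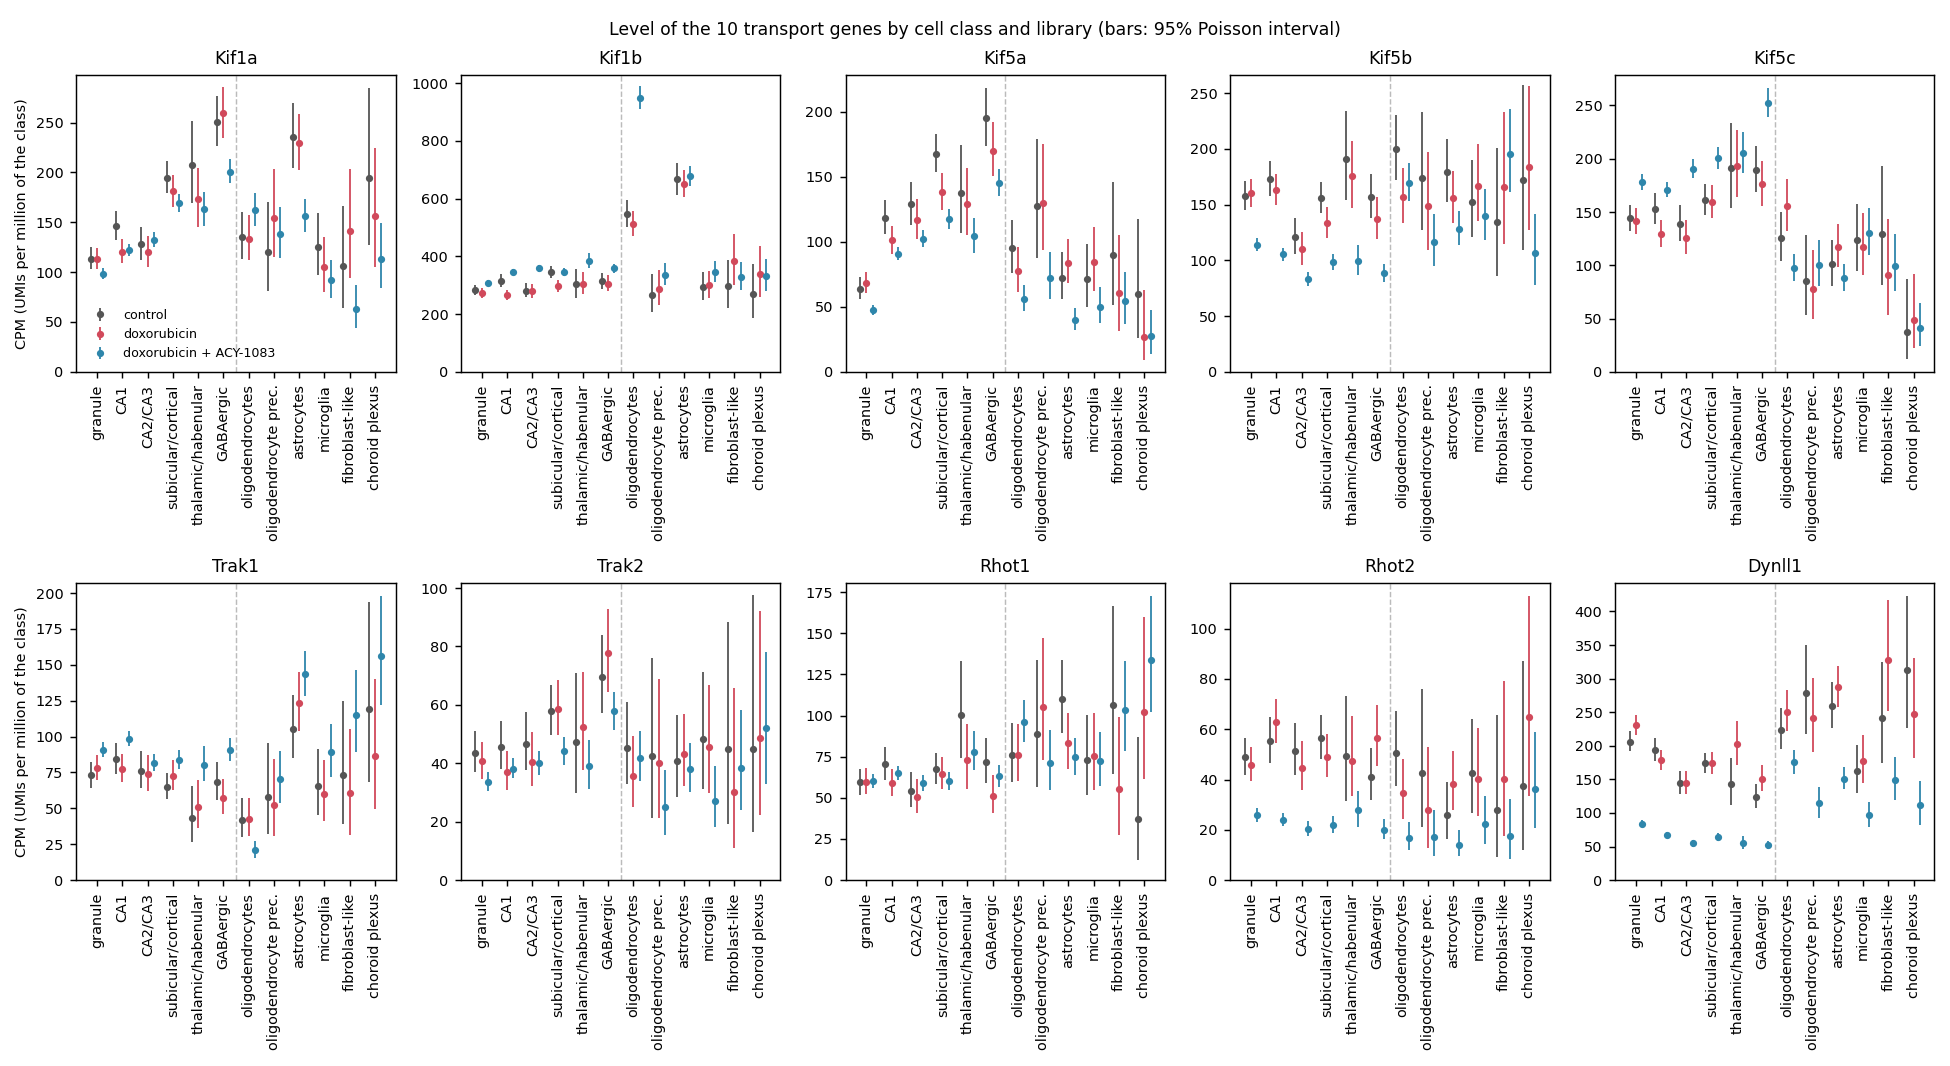
CPM of the 10 transport genes in 12 cell classes of the 3 libraries, with exact Poisson intervals; the dashed line parts neuron from other classes, and each panel has its own axis from 0. Kif1b stands out in oligodendrocytes and astrocytes, Kif5a climbs from granule (64.0 CPM) to GABAergic neurons (195 CPM) in control, and Rhot2 and Dynll1 lie lower in the third library in every class.

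Few of these genes differed between the doxorubicin and control libraries. Past the fold below means a ratio of at most 0.8, or at least the inverse of 0.8, with an interval on the same side of 1, for a gene and class with a mean of at least 10 CPM. All 120 values of the 10 genes in 12 classes met that minimum. Of them 1 was higher (0.833%, against 2.69% of 122166 values of all genes) and 2 were lower (1.67%, against 3.65%), so the transport genes were called no more often than genes at large. Their median log2 ratio was -0.06, beside -0.04 over all genes. No gene was past the fold when all nuclei were summed: the ratios ran from 0.882 for Kif5a (0.831 to 0.936) to 1.06 for Dynll1 (1.01 to 1.11).

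Kif5b in oligodendrocytes was one of the 2 lower values, at 156 CPM in doxorubicin (162 UMIs) and 200 CPM in control (189 UMIs), a ratio of 0.784 (0.631 to 0.972). In the same class Kif5c went the other way without passing the fold, at 155 against 126 CPM, a ratio of 1.24 (0.970 to 1.58). The Kif5c share of the heavy chain UMIs was accordingly 40.0% (35.1 to 44.9) in doxorubicin against 29.9% (25.4 to 34.7) in control. Rhot1 in GABAergic neurons was the other lower value, at 51.4 CPM (80 UMIs) against 71.6 CPM (113 UMIs), a ratio of 0.719 (0.532 to 0.964). Rhot2 there had 56.5 against 41.2 CPM, a ratio of 1.37 (0.984 to 1.92), and the Rhot1 share of the pair was 47.6% (39.9 to 55.5) against 63.5% (56.0 to 70.6). These were the only 2 of 72 paralog shares whose intervals lay apart between the libraries, and they were singled out after their values were seen.

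Dynll1 in thalamic or habenular neurons was the higher value, at 202 CPM (158 UMIs) against 144 CPM (70 UMIs), a ratio of 1.40 (1.06 to 1.89). Its ratio was 1.12 (1.02 to 1.23) in granule neurons, 1.21 (1.0 to 1.48) in GABAergic neurons and 1.11 (0.934 to 1.32) in astrocytes, and above 1 in 7 of 12 classes. Each of the 3 calls was lost under some other choices: Kif5b with doublets kept (5 values past the fold there), with nuclei thinned to 1000 UMIs, or against genes of like intron length; Rhot1 with thinning; and Dynll1 with doublets kept or thinning. All 3 were lost at a fold of 1.5. Over the alternatives that could be computed the ratio stayed on its side of 1, from 0.701 to 0.870 for Kif5b, from 0.655 to 0.748 for Rhot1 and from 1.27 to 1.45 for Dynll1.

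In CA1 neurons, the main output cells of the hippocampus, small shortfalls recurred without passing the fold. The ratio was 0.825 (0.716 to 0.95) for Kif1a, 0.841 (0.764 to 0.925) for Kif1b, 0.854 (0.730 to 0.998) for Kif5a and 0.848 (0.739 to 0.973) for Kif5c, while Rhot2 had 1.14 (0.918 to 1.41). The median log2 ratio of the 10 genes was -0.23 in CA1, against 0.00 in granule neurons and -0.12 in CA2/CA3. Kif5a in subicular or cortical cells had a ratio of 0.824 (0.719 to 0.944) and Kif1b there 0.856 (0.780 to 0.94). All genes together had class medians between -0.07 and 0.00 in this comparison.

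**Figure D4:**
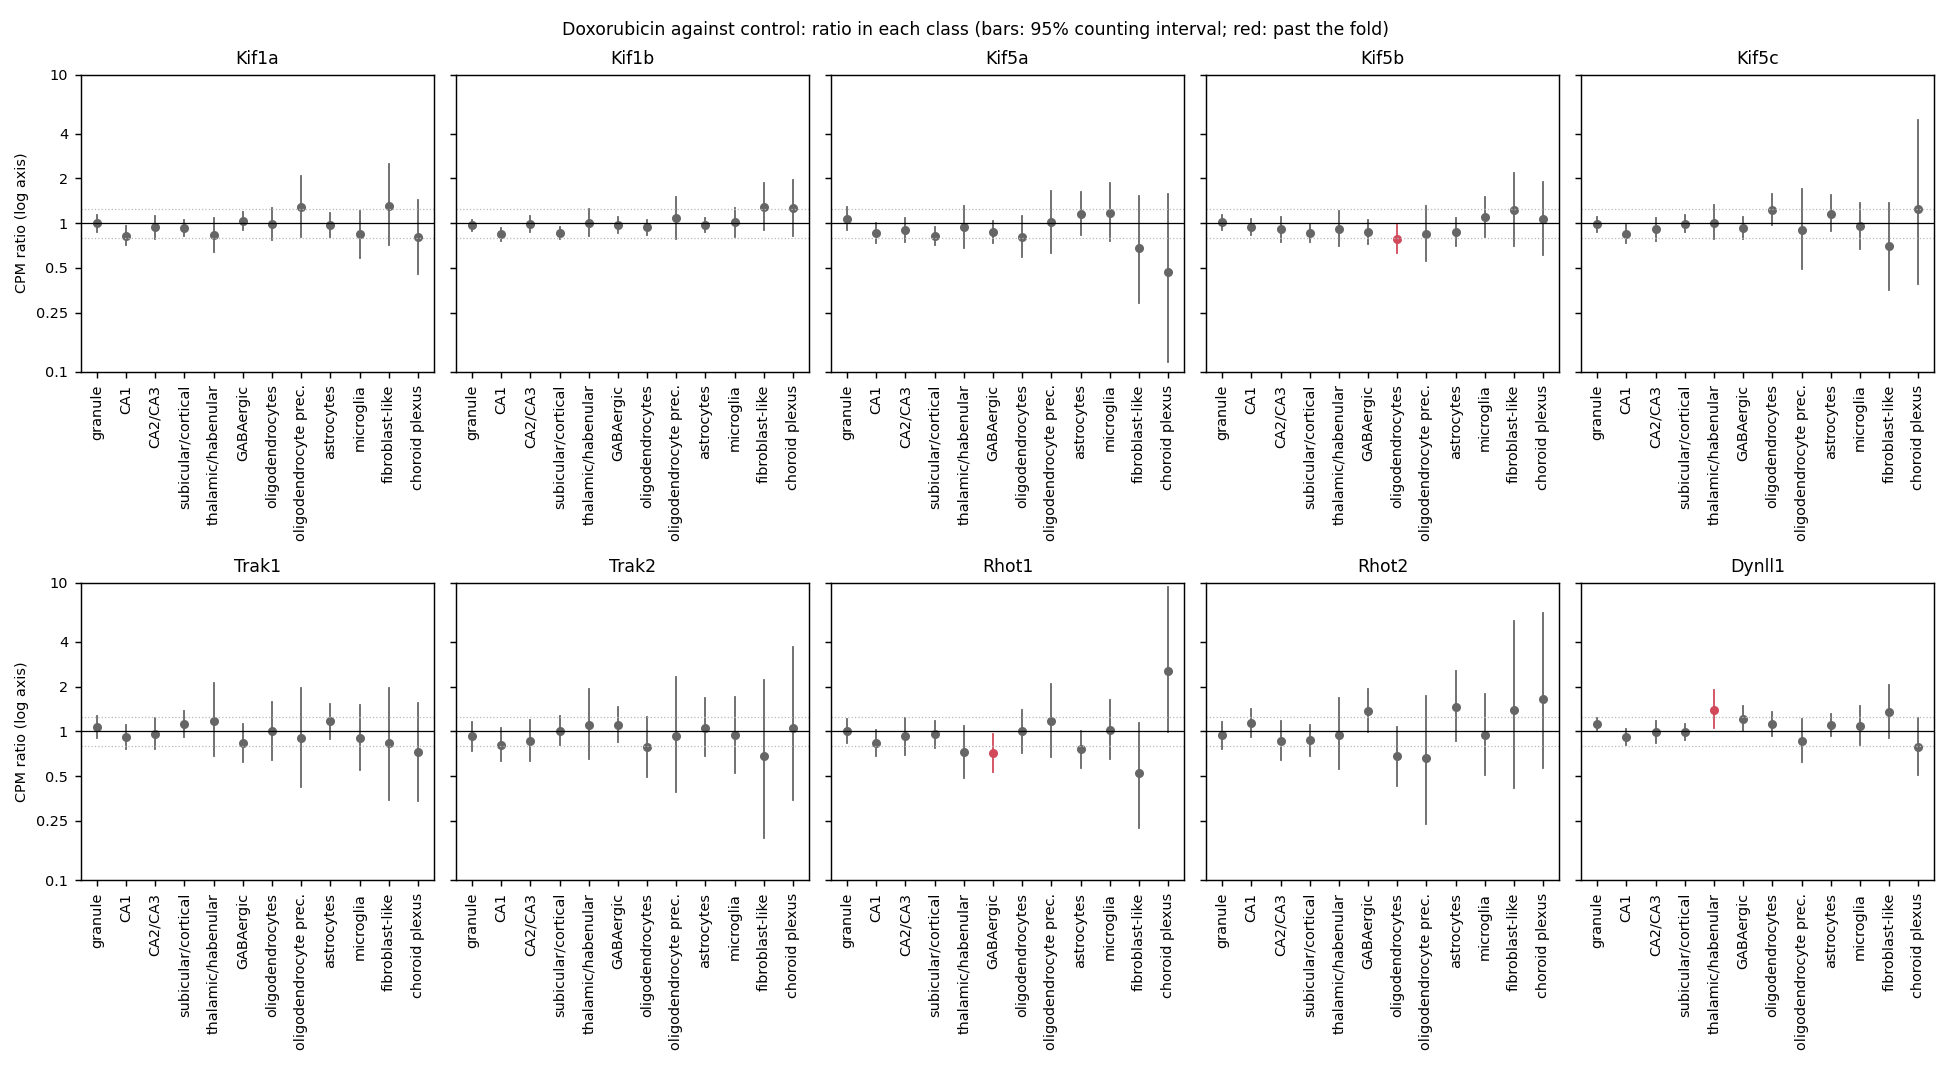
Ratio of doxorubicin to control CPM in 12 classes for each transport gene, on a log axis with 95% counting intervals; dotted lines mark 0.8 and its inverse, and red marks the 3 values past the fold. Kif5b in oligodendrocytes (0.784), Rhot1 in GABAergic neurons (0.719) and Dynll1 in thalamic or habenular neurons (1.40) are the red points, and wide bars in fibroblast-like and choroid plexus cells rest on few UMIs.

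The doxorubicin plus ACY-1083 library differed from the doxorubicin library in many values, and the differences followed intron length. Of the 120 values 14 were higher (11.7%, against 25.5% of 125886 values of all genes) and 40 were lower (33.3%, against 34.1%). The median log2 ratio was -0.20 for the 10 genes and -0.25 for all genes. This split depends on scaling: with TMM, which moved the median of all genes to 0.11, 42 were higher and 23 lower (all genes 33.6% and 22.5%), and with totals that leave out mitochondrial genes, Malat1 and Meg3, which moved it to -0.53, 2 were higher and 62 lower (all genes 19.8% and 42.3%). Across all genes, the Spearman correlation of the ratio with intron length was between 0.52 (oligodendrocytes) and 0.71 (CA1) over 9535 to 11399 genes per class, whereas in doxorubicin against control it was between -0.15 and 0.01. The treatment and the library cannot be told apart here, and the labels and headers do not say whether intronic reads were counted alike.

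The short genes were low throughout. Dynll1 was lower in 12 of 12 classes, from a ratio of 0.275 (0.215 to 0.349) in thalamic or habenular neurons to 0.698 (0.596 to 0.819) in oligodendrocytes. Rhot2 was lower in 8 classes, with a lowest ratio of 0.353 (0.265 to 0.474) in GABAergic neurons. Genes of like intron length behaved the same way, so Dynll1 differed from them by a median log2 of only -0.01, and Rhot2 by 0.15. Rhot2 stood above those genes in thalamic or habenular neurons, at 1.52 times their median, and in granule neurons, at 1.46 times, and Dynll1 in thalamic or habenular neurons below them, at 0.71 times.

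Among the longer genes, Kif5b was lower in 7 classes, among them all 6 neuron classes at 0.566 to 0.755, while oligodendrocytes had 1.08 (0.901 to 1.31) and fibroblast-like cells 1.17 (0.793 to 1.79). Kif5a was lower in 5 classes, with 0.696 (0.603 to 0.806) in granule neurons and 0.477 (0.355 to 0.641) in astrocytes. Kif1a was lower in GABAergic neurons at 0.773 (0.689 to 0.869), in astrocytes at 0.682 (0.581 to 0.802) and in fibroblast-like cells at 0.445 (0.265 to 0.760). Trak2 was lower in subicular or cortical cells at 0.753 (0.622 to 0.919) and in GABAergic neurons at 0.742 (0.601 to 0.925). Rhot1 passed the fold in no class, with ratios from 0.673 (0.440 to 1.06) to 1.80 (0.969 to 3.93). The 3 genes with the longest introns had the higher values. Kif1b was higher in 4 classes, with 1.85 (1.69 to 2.04) in oligodendrocytes and 1.30 (1.21 to 1.40) in CA1. Kif5c was higher in 5 neuron classes, from 1.26 (1.13 to 1.40) in subicular or cortical cells to 1.51 (1.32 to 1.74) in CA2/CA3. Trak1 was higher in 5 classes, among them GABAergic neurons at 1.58 (1.26 to 2.01) and CA1 at 1.27 (1.11 to 1.46).

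Set against genes of like intron length in the same class, 53 of the 120 values were lower (44.2%, against 19.2% of all genes read the same way) and 1 was higher (0.833%, against 21.7%). Trak1 was below such genes in 12 of 12 classes, by a median log2 of -0.99, Kif1a by -0.56, Kif5c by -0.54 and Trak2 by -0.46, each in 12 of 12. Kif1b was below them in 11 classes, by a median of -0.56, and above them in oligodendrocytes, at 1.19 times. Rhot1 matched them most closely among the long genes, with a median of -0.02 and 5 classes above. Kif5a and Kif5b were below by medians of -0.15 and -0.26. Thus the direction in which Trak1, Kif1b and Kif5c differ between these libraries turns with the genes they are read against.

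Not every long gene was higher in every class. In oligodendrocytes Kif5c was lower at 0.626 (0.509 to 0.771), from 97.3 against 155 CPM, and Trak1 was lower at 0.486 (0.316 to 0.75), from 20.7 against 42.5 CPM on 48 and 44 UMIs, though both have long introns. Kif1b, also long, was 1.85 times as high there. Kif5c was also lower in astrocytes, at 0.748 (0.599 to 0.937), and against genes of like intron length it stood at 0.41 times there and 0.40 times in oligodendrocytes. In oligodendrocytes the median of the pan-neuron genes stood at 40.0% of their neuron mean in the third library against 73.1% in doxorubicin. The highest of them went the other way, at 243% against 174%. These are percentages of each library's own neuron mean and not CPM ratios between libraries. What part RNA from other cells has in the oligodendrocyte ratios was not tested. The class also came from different clusters, with nearly all control and doxorubicin nuclei in one and 1684 of the third library in another. A further 131 nuclei of the third library had oligodendrocyte markers but a median of 7544 UMIs and were set apart. They held 1170283 UMIs, beside 2322302 in the class as compared, and 0 nuclei of control and doxorubicin were set apart. The oligodendrocyte ratios leave them out, and ratios that include them were not computed. In the nuclei set apart, Trak1 stood at 88.9 CPM (72.6 to 108), Kif5c at 185 CPM (161 to 211) and Kif1b at 445 CPM (408 to 485), all nearer to the neuron levels.

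**Figure D5:**
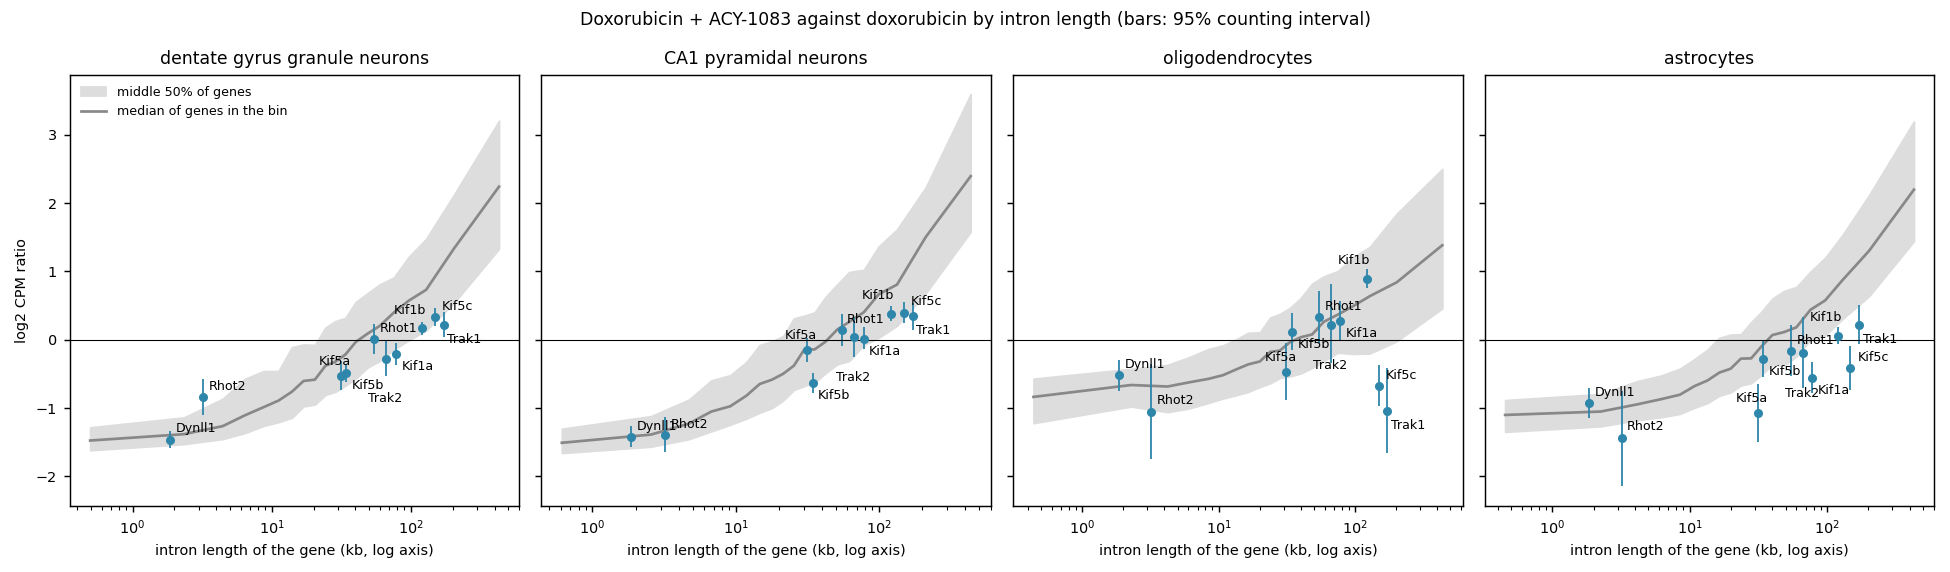
Log2 CPM ratio of doxorubicin plus ACY-1083 to doxorubicin against intron length (kb, log axis) in 4 classes; the grey line is the median and the band the middle 50% of all genes in 20 bins of intron length, and blue points are the transport genes with 95% counting intervals. The line climbs in every class; Dynll1 sits on it at the left, and Trak1 and Kif5c fall below it at the right, most of all in oligodendrocytes (ratios 0.486 and 0.626).

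The paralog shares moved in the same manner. In granule neurons Kif5c held 52.4% (50.9 to 53.9) of heavy chain UMIs in the third library against 38.2% (35.7 to 40.7) in doxorubicin, and Kif5b 33.6% (32.2 to 35.0) against 43.3% (40.7 to 45.9). Rhot1, the longer of the Miro genes, held 70.1% (67.3 to 72.8) against 56.6% (51.7 to 61.4) there. Of 72 shares 24 were higher and 12 lower with intervals apart. The order of classes within the third library was kept in part: Kif5a shares still ran from 14% (13.0 to 15.1) in granule neurons to 29.9% (28.2 to 31.7) in GABAergic neurons.

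The rest of the transport machinery was described by 7 lists. In doxorubicin against control, counted over genes and classes with at least 10 CPM, other kinesins had 1 value higher and 7 lower of 173, with a median log2 ratio of -0.09. Kinesin light chains and cargo adaptors had 7 higher and 13 lower of 207 (median -0.03), and dynein subunits had 2 higher and 1 lower of 96 (median 0.09). Dynactin and dynein regulators had 3 higher and 13 lower of 198 (median -0.03), and genes of mitochondrial docking, fusion and fission had 2 higher and 8 lower of 226 (median -0.06). Tubulins and microtubule-associated proteins had 5 higher and 2 lower of 263 (median 0.01), and the tubulin acetylation genes had 1 higher and 2 lower of 36 (median 0.09). For reading these counts, all genes had 2.69% higher and 3.65% lower with a median of -0.04. Dynactin and its regulators had the largest share lower, at 6.57%, followed by light chains and adaptors at 6.28%.

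The 2 genes of each list with the clearest difference were as follows. Among other kinesins, Kifc3, a minus-end motor, had 88.4 against 136 CPM in astrocytes (ratio 0.651, 0.495 to 0.853), and Kifc2 had 4 against 14 UMIs in choroid plexus epithelium (0.224, 0.0495 to 0.657). Among adaptors, Mapk8ip2, the scaffold JIP2, had 97.5 against 57.0 CPM in oligodendrocytes (1.70, 1.22 to 2.43), and Plekhm2, which joins lysosomes to conventional kinesin, had 24.4 against 38.6 CPM in CA1 (0.634, 0.468 to 0.854). The dynein genes were Dync1h1, the heavy chain, at 284 against 356 CPM in GABAergic neurons (0.799, 0.703 to 0.906), and Dync1i2, an intermediate chain, at 276 against 217 CPM in astrocytes (1.27, 1.06 to 1.53). Dync1h1 and Rhot1 were both lower in GABAergic neurons of the doxorubicin library, but each was picked as an extreme value. Kif1a, Trak2, Rhot2 and Dynll1 had ratios above 1 in that class.

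Bicd1, a dynein cargo adaptor, had 253 against 327 CPM in subicular or cortical cells (0.775, 0.702 to 0.856), and Actr1b, a dynactin subunit, had 111 against 205 CPM in oligodendrocyte precursors (0.545, 0.345 to 0.845). Ogt, the O-GlcNAc transferase that modifies TRAK1 and arrests mitochondria, had 431 against 566 CPM in CA2/CA3 neurons (0.762, 0.695 to 0.834). Mief1, a receptor for the fission protein DRP1, had 11.2 against 20.1 CPM in granule neurons (0.562, 0.378 to 0.822). Of these 14 genes Bicd1 and Ogt rest on the most UMIs, 671 and 839 in doxorubicin. Mapre2, a microtubule end-binding protein, had 81.6 against 129 CPM in astrocytes (0.632, 0.476 to 0.836), and Tubb5, a beta-tubulin, had 129 against 85.5 CPM in oligodendrocytes (1.51, 1.14 to 2.02). Hdac6, the target of ACY-1083, had 38 against 14 UMIs in microglia (2.42, 1.31 to 4.94), and Sirt2, a further tubulin deacetylase, had 77.3 against 111 CPM in astrocytes (0.697, 0.518 to 0.936). These genes were picked as the most extreme of their lists, so the size of their ratios is a description.

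In doxorubicin plus ACY-1083 against doxorubicin, the list medians were 0.03 for other kinesins, -0.72 for light chains and adaptors, -0.76 for dynein subunits, -0.81 for dynactin and regulators, -0.46 for mitochondrial docking, fusion and fission, -0.48 for microtubule genes and -0.95 for tubulin acetylation, beside -0.25 for all genes. Against genes of like intron length these became -0.27, -0.45, -0.34, -0.49, 0.07, -0.23 and -0.27. The mitochondrial list and the other kinesins thus both changed sign, and 6 of the 7 lists lay below their like genes.

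Genes with the most similar class pattern were sought over the 24 class profiles of control and doxorubicin, by Pearson's r of log2(CPM + 10) among 7807 genes. For Kif1b these were Myo6 (0.94), Daam2 (0.88) and Tmem229a (0.87), for Kif5a Carmil3 (0.91), Rab3c (0.88) and Ptprn2 (0.87), and for Kif5c Cltb (0.91), Tcaf1 (0.90) and Hdx (0.90). Dynll1 was most like Rps27a (0.91), Eef1a1 (0.91) and Rpl31 (0.91), which encode parts of the translation machinery. Weaker matches were Ccdc136 (0.83), Abat (0.83) and Thrb (0.81) for Kif1a, Osbpl3 (0.85), Ankrd24 (0.82) and Samm50 (0.82) for Trak2, and Ampd2 (0.79), Akt2 (0.77) and Slc39a12 (0.74) for Trak1. The lowest best matches were Tsen34 (0.78), Gabarapl1 (0.74) and G3bp1 (0.74) for Rhot1, Slc11a2 (0.78), Anks3 (0.76) and Usp10 (0.76) for Rhot2, and Akirin1 (0.73), Stag2 (0.73) and Ube2h (0.70) for Kif5b. Among the 10 genes themselves, the most alike pair was Kif5a with Kif5c (0.65), and the most opposed was Kif5c with Dynll1 (-0.66). The profiles share libraries and depth, so these values describe likeness only.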

How the data were processed

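Single-nucleus RNA (10x 3' version 3) was measured in 3 libraries of frozen mouse hippocampus, 1 per group. The deposited values are whole-number UMI counts, not normalized. Per the file headers, the authors used Cell Ranger 4.0.0 for control and doxorubicin and 5.0.0 for doxorubicin plus ACY-1083, whereas the submitters' processing notes name 6.0.0 and mm10. None of these sources says whether introns were counted.

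Nuclei with at least 300 genes and at most 5% mitochondrial UMIs were kept. Scrublet's automatic threshold marked 3, 1 and 1 barcodes and had not worked, so a doublet score of 0.25 was set after seeing this. It removed 452, 573 and 344 barcodes (4.14%, 4.69% and 2.82%). The libraries were clustered together (scanpy 1.11.5; 2000 variable genes, 30 components, 15 neighbours, Leiden resolution 1). A cluster was named where the mean log2 fold of its markers was at least 0.75 and an own marker was among its 10 leading genes, or 2 were. That threshold, and leaving predicted and Rik genes out of the leading genes, were set after marker scores were viewed. Unnamed clusters included 1 of 1181 nuclei led by Col6a1 and Cpne7 and 1 led by mitochondrial genes.

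UMIs were summed per library and class. CPM has an exact Poisson interval, a ratio (0.5 counts added before log2) one from the Clopper-Pearson bounds of the share of both counts, and a share an exact Clopper-Pearson interval. The number of UMIs behind a value sets how firmly it can be read. Intron length is the largest summed intron length of any annotated transcript, in 20 bins for the comparison with like genes. GENCODE vM21 matched 32235 of 32285 genes. The code was tested on simulated data.

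The text names all 10 genes in every class, the 2 genes of each transport list whose interval lay farthest from 1 in doxorubicin against control, and for each of the 10 genes the 3 most alike in class pattern (at least 50 CPM in the highest class). The 10 genes and the lists were chosen with earlier results of these data known. Alternatives covered filters, doublets, clustering, thinning, scaling, intron bins, the CPM minimum, the fold, added counts and no classes. Cajal-Retzius and endothelial nuclei were under 100 in a library and were not compared.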

Additional observations from a re-analysis of the deposited data

Results flagged for a closer look

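Kif5c and Trak1 passed the fold upward in some cell classes and downward in others between the doxorubicin plus ACY-1083 and doxorubicin libraries; with 1 library per group, the difference between classes was not tested. Kif5c had ratios of 0.626 in oligodendrocytes and 0.748 in astrocytes, but 1.26 in subicular or cortical excitatory neurons and 1.51 in CA2/CA3 neurons. Against genes of like intron length the same values became 0.40, 0.41, 0.80 and 0.82, so all lay below 1 and the classes kept their order. Trak1 had ratios of 0.486 in oligodendrocytes, 1.27 in CA1 neurons and 1.85 in fibroblast-like cells. The oligodendrocyte ratios of both genes leave out the 131 nuclei of the third library that were set apart. Both genes had higher CPM in those nuclei, and ratios that include them were not computed. Against like genes these became 0.27, 0.45 and 0.71.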

How the results depend on the processing

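In doxorubicin against control, the count of 3 values past the fold became 6 with at least 600 genes per nucleus, 5 with doublets kept, 0 at a fold of 1.5 and 0 with all nuclei as 1 class. In doxorubicin plus ACY-1083 against doxorubicin, the count of 54 became 35 at Leiden resolution 0.5, 30 with each library clustered on its own, 35 when thinned, 35 at a fold of 1.5 and 3 with all nuclei as 1 class. Several of these have fewer classes to count (8 at 600 genes, 9 at resolution 0.5, 7 when clustered apart). The number of list medians above 0, 4 of 14, became 2 at 600 genes. Other settings changed signs of list medians too. In doxorubicin against control, light chains and adaptors became 0.015 with TMM, 0.007 with totals without mitochondrial genes, Malat1 and Meg3, and 0.041 with intron bins. Dynactin and regulators became 0.01 with TMM and 0.014 with intron bins. Thinning turned other kinesins to -0.05 in doxorubicin plus ACY-1083 against doxorubicin. The 4 genes highest in a neuron class in all libraries were 3 to 5 under the alternatives. Against genes of like intron length the median of doxorubicin plus ACY-1083 against doxorubicin changed sign, from past the fold, to 0.069 for mitochondrial docking, fusion and fission, -0.99 for Trak1 and 0.15 for Rhot2. It also did so to -0.56 for Kif1b, -0.54 for Kif5c, -0.27 for other kinesins and -0.02 for Rhot1, and 4 medians near 0 of doxorubicin against control changed sign. In doxorubicin plus ACY-1083 against doxorubicin, TMM turned the medians of Kif1a (0.24), Kif5a (0.05) and Trak2 (0.12) above 0, and totals without mitochondrial genes, Malat1 and Meg3 turned those of Kif1b (-0.06), Kif5c (-0.03), Rhot1 (-0.24) and other kinesins (-0.23) below 0. Of the 34 medians over genes or lists, TMM moved 13, intron bins 10 besides the first 3 above, totals without mitochondrial genes, Malat1 and Meg3 10, thinning 2, 600 genes 1 and separate clustering 1. The causes were not tested. No paired analysis was possible because each group has 1 library. Depth limits the Rhot, Trak2 and choroid plexus values most.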
